A study of Mus musculus with 15 samples.

Results

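The genes examined here were 9 regulators of the myogenic factor MyoD, namely the E proteins Tcf3, Tcf4 and Tcf12, which are its partners, and Id1, Id2, Id3, Id4, Msc and Mdfi, which inhibit it. They were chosen by name, and their H3K27ac peaks were those overlapping the RefSeq span of a gene or the 50 kb on either side. The peak list held 122375 peaks, of which 265 lay at these loci, 200 at partners and 65 at inhibitors, and no peak was shared between loci. Each peak was called promoter when it overlapped the 2 kb on either side of a start site of that gene, gene body when it overlapped the rest of the gene, and flank otherwise.

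The series profiled fusion-positive rhabdomyosarcoma (FP-RMS), a soft tissue tumor driven here by the fusion PAX3-FOXO1, with CUT&RUN, in which a nuclease tethered to an antibody releases the DNA around its target. H3K27ac, an acetylated histone mark of active promoters and enhancers, was profiled in 6 MCP and 3 TCP libraries, and IgG, which gives the background, in 3 of each. MCP tumors came from mice with Myf6-Cre and the alleles Cdkn2a(Flox/Flox), Pax(3P3F/P3F), which is the label's spelling for Pax3 alleles carrying the fusion, and R26-tdTom, and TCP tumors from mice with Tek-Cre and the same 3 alleles. Only the peak list of MCP H3K27ac replicate 5 was used here, so there was no replicate, no TCP comparison and no test between groups of samples. Myf6-Cre acts in myogenic cells, and the chromatin came from nuclei of tumor cells sorted after digestion of a tumor. A peak therefore averaged over those cells, and a mark in fewer cells could not be told apart from less mark per cell.

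MyoD binds DNA as a dimer with an E protein, and such dimers of basic helix-loop-helix (bHLH) proteins recognize the E-box, the sequence CANNTG. Id proteins have the helix-loop-helix but lack the basic region that touches DNA, so they hold E proteins in dimers that cannot bind. Msc (MyoR) is a bHLH repressor that occupies E-boxes together with E proteins, and Mdfi (I-mfa) is not a bHLH protein but binds myogenic factors and keeps them from DNA. RMS cells express MyoD yet divide, and the balance of partners and inhibitors is one of the steps known to set whether myoblasts differentiate. H3K27ac marks regulatory DNA and is not a measurement of expression, and the assignment of a peak to a gene by distance is not evidence that it acts on that gene.

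The sequences below are the 201 bases around summits at 6 of the 9 genes, to show which E-boxes lie under their acetylation: the strongest peak with a summit in the gene or its promoter whose window avoids untranslated regions, and the strongest flank peak of all 9 loci. Capitals mark E-boxes (CANNTG) and, at Id3, the letters GGCGCC, which resemble a site bound by SMAD proteins downstream of BMP. All are from the plus strand of GRCm38.p6 (mm10, RefSeq). None is shown for Tcf4, nor for Msc and Mdfi, which had no peak at the gene.
Tcf3, upstream, chr10:80435565-80435765: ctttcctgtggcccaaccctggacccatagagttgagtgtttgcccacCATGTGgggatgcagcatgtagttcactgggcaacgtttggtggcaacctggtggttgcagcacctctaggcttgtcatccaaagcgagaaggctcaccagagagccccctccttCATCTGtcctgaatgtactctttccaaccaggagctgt
Tcf12, internal start site, chr9:71888669-71888869: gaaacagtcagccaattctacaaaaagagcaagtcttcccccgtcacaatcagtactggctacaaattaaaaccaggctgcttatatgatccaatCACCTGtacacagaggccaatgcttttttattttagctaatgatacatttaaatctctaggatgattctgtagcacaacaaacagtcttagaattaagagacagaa
Tcf12, downstream flank, chr9:71825591-71825791: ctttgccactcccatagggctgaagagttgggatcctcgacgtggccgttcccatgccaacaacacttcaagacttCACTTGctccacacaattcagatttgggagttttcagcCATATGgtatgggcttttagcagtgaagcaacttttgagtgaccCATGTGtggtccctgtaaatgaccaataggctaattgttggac
Id1, upstream, chr2:152734762-152734962: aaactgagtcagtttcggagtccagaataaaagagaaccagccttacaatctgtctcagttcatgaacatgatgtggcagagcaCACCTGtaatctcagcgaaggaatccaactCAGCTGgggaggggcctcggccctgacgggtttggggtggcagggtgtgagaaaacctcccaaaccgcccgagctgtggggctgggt
Id2, upstream, chr12:25096507-25096707: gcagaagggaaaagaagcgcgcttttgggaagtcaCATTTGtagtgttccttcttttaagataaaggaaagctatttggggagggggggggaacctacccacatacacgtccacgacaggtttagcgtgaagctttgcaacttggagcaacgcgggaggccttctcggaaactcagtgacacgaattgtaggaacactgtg
Id3, upstream, chr4:136143361-136143561: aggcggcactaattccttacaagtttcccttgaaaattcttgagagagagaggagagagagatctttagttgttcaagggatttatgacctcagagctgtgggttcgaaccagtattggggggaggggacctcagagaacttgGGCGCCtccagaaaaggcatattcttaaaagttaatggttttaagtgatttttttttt
Id4, intron, chr13:48262592-48262792: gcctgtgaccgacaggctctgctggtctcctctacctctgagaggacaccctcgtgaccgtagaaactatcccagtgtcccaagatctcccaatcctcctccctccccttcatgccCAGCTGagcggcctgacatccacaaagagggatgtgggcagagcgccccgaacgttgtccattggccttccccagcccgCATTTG

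The list was shallow, with a median of 13 fragments over a summit as solved from the caller's fold and p, and this gives a relative counting error of 27.7%. Fold enrichment, which sets the fragments over a summit against the background taken there, had a median of 5.22 over all peaks. For 47.0% of peaks this background was the lowest value of the list, 1.05, so their fold followed the fragment number alone. The strongest 25% of the list were 31097 peaks, with -log10 q from 7.40 upward. Among marker genes of the cell type, 1 of 10 myogenic genes had a promoter peak. It was Myf6, the locus of the Cre, with 1 peak of 5.97-fold, and the factors Myod1, Myog and Myf5, the satellite cell factor Pax7, and Des, Cdh15, Chrna1, Mef2c and Fgfr4 had none. Promoter peaks lay at 0 of 10 endothelial, 1 of 10 immune (Cd68) and 4 of 10 fibroblast markers (Pdgfra, Fap, Col3a1 and Postn), where 46.1% of all protein-coding genes had one. The defining myogenic promoters were thus without a peak apart from Myf6, while the loci of the 10 myogenic genes held a median of 11.4 peaks per 100 kb against 5.49 over all genes. The median was 6.05 at endothelial, 1.37 at immune and 1.23 at fibroblast loci. Whether cells of other types contributed to the values below was not tested.

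Acetylation at the 9 loci ran from none at Msc to 119 peaks at Tcf4. A promoter peak was found at 7 of the 9 genes, all but Msc and Mdfi, where 46.1% of the 21521 protein-coding genes had one. A promoter peak among the strongest 25% was found at 4 genes, Tcf4, Tcf12, Id1 and Id3, against 30.0% of all genes. Tcf4, Tcf12 and Id4 had peaks in the gene body outside promoters, against 31.6% of all genes. Gene length limits this count, since such sequence measured 0 bp at Id1 and Id3, 293 bp at Id2 and 622 bp at Msc. Every gene but Msc had a peak somewhere in its locus, against 77.2%. A locus peak among the strongest 25% was present at Tcf4, Tcf12, Id1 and Id3, against 64.7% of all genes.

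Of the partners, Tcf4 carried the most peaks. Tcf4 encodes E2-2, an E protein best known from neurons and plasmacytoid dendritic cells, and it is a long gene of 344.5 kb on chromosome 18. Its locus held 119 peaks, 14 at promoters, 95 in the gene body and 10 in the flanks, and 33 of them were among the strongest 25% of the list. This came to 26.8 peaks per 100 kb (exact Poisson 95% interval 22.2 to 32.0), above 95.3% of all protein-coding genes, and fold enrichment ran up to 14.2 with a median of 5.35. The chromosome as a whole had 4.20 peaks per 100 kb.

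The peaks of Tcf4 were spread unevenly along the gene. The first 50 kb held 7 peaks and the next 50 kb held 8, there was none from 100 to 150 kb, and 5 lay from 150 to 200 kb. From there on the numbers were higher, with 20 peaks from 200 to 250 kb, 37 from 250 to 300 kb and 32 in the remaining stretch, which is 71.8 per 100 kb. The last of these intervals thus had about the density of the one before it, at 74 per 100 kb, and the first 50 kb had 14. The strongest peak of the locus lay apart from both ends, in an intron 72.8 kb from the first start site, with 14.2-fold enrichment and 35 fragments (exact Poisson 95% interval 24.4 to 48.7).

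RefSeq places start sites of Tcf4 in 4 separate windows, and these differed. Only the upstream window holds curated models, for 6 of its 31 transcripts, and the start sites of the others are predicted. The upstream window, with 13 start sites, had 5 peaks, 4 of them among the strongest 25% and the tallest by fold at 7.41. The window at 176 kb had no peak at any of its 7 start sites. The window at 220 kb had 3 peaks of up to 6.08-fold, none among the strongest. The window at 250 kb, whose single start site is a predicted one, had 6 peaks, 4 of them strong, and the highest, of 13.5-fold and 32 fragments (21.9 to 45.2), reached a summit 3.07 kb beyond that start site. Joining peaks no more than 12.5 kb apart, outside 1 kb around start sites, gave 20545 clusters. The cluster over the 3' part of Tcf4 spanned 121.8 kb with 78 peaks and ranked 39 by fold times width, within the top 0.190%.

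Tcf12 encodes HEB, an E protein of muscle and lymphocytes. Its locus held 76 peaks, of which 13 were promoter, 39 gene body and 24 flank, and 19 were strong. The density of 20.7 per 100 kb (16.3 to 25.9) was above that of 90.3% of genes, and the median fold was 5.22, the same as in the whole list. The upstream start sites, chr9:72111201-72111893, which serve 12 transcripts, had a single peak at chr9:72110661-72110745 with 4.79-fold enrichment and 10 fragments (4.80 to 18.4), not among the strongest. The internal start sites 212 kb downstream had 8 peaks, 4 of them strong and up to 8.93-fold, and the start site at 222 kb had 4 peaks, 1 of them strong at 9.10-fold and 20 fragments. The last of these is the peak printed above as the internal start site. Of the 13 promoter peaks of Tcf12, 12 were thus internal, and 2 of the 5 transcripts of the first internal window are curated models. The start site at 222 kb is a predicted one. Gene body peaks of Tcf12 were at 14 per 100 kb in the first 50 kb, 12 from 200 to 250 kb, where 12 more were promoter peaks, and 39.7 in the last 50 kb interval, which the gene fills only in part.

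**Figure D1:**
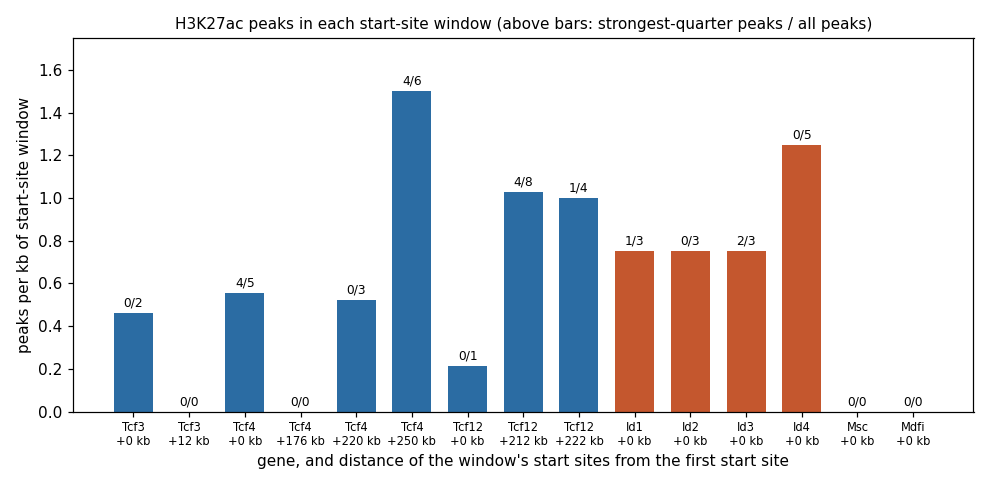
Peaks per kb in each window of start sites (2 kb on either side, merged where they touch), with partners in blue and inhibitors in orange, and above each bar the peaks among the strongest 25% of the list over all peaks of the window. The window at the upstream start sites of Tcf12 holds 1 peak and its internal windows 8 and 4, whereas both Msc and Mdfi have none.

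The strongest peak of the Tcf12 locus was in its flank, at chr9:71824871-71826452, in intergenic DNA on the 3' side, with 14.7-fold enrichment and 33 fragments (22.7 to 46.3). It is the tallest of the 265 peaks by fold, and 0.744% of the list ranked at or above it by q. Its nearest start site is that of the neighbor Cgnl1, 16.4 kb away, and 8 of the 24 flank summits lay inside Cgnl1. A cluster of 22 joined peaks over 39.4 kb spanned from this flank into the 3' end of Tcf12 and ranked 509.

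Tcf3 was unlike the other partners. It encodes E12 and E47, the first E proteins known to dimerize with MyoD. It had 5 peaks, 4.02 per 100 kb (1.30 to 9.38), below the median gene at 5.49, and none was strong. The upstream peak at chr10:80435603-80435831, 1.69 kb from the nearest start site, reached 6.51-fold with 14 fragments (7.65 to 23.5), and the intronic promoter peak at chr10:80432789-80432868 reached 5.22-fold with 11. No peak lay in the rest of the gene. The other 3 peaks, of 3.12- to 3.93-fold, all lay at promoters of other genes, Mbd3 for 1 of them and Mex3d for the others. Between the peaks that bound the Tcf3 locus 1 peak number of the list was absent, and what it held is not known here.

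Among the inhibitors, Id1 and Id3 carried the most peaks, Id2 and Id4 few and weak ones, and Msc and Mdfi none at their promoters. Id1, a direct target of BMP signaling in many cells, had 29 peaks and 28.7 per 100 kb (19.2 to 41.2), above 96.2% of genes and the highest density of the 9. Only 3 of them were at its promoter. The strongest of these, chr2:152734459-152734985, is the upstream peak printed above and had 7.35-fold enrichment with 18 fragments (10.7 to 28.4), and the others reached 4.27- and 3.62-fold. Of the 26 flank peaks, 11 lay inside H13 and 8 inside Bcl2l1, and the strongest of the locus, 8.24-fold, was in an intron of Bcl2l1 49.6 kb away. The 10 peaks whose nearest start site was that of Id1 lay between 9.69 kb upstream and 7.44 kb downstream. Most peaks counted at Id1 thus lay nearer to the start site of another gene.

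Id3, which like Id1 responds to BMP, had 20 peaks, 19.7 per 100 kb (12.0 to 30.4), above 89.2% of genes, and 8 of the 20 were strong. For 6 of the 20 the nearest start site was that of Id3, and the others lay nearer to that of another gene. The promoter window of Id3 held 3 peaks. The highest by fold, chr4:136142918-136143534, with its summit 0.361 kb upstream, had 9.49-fold enrichment and 28 fragments (18.6 to 40.5), and is the sequence with GGCGCC above. The strongest by q, chr4:136140634-136141836, had 9.18-fold and 30 fragments (20.2 to 42.8), but touched the window only with its edge and had its summit 3.12 kb upstream, in the neighboring RNA gene Gm42329. The third, in the exon of Id3, reached 3.84-fold. Of the 17 flank peaks 3 were in introns of E2f2, and the upstream flank held strong peaks at 27.3 kb and around 20.1 kb from the start site. A cluster of 15 joined peaks over 31.3 kb lay over Id3 and ranked 1973.

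Id2 and Id4 had peaks at their promoters but no strong peak anywhere. Id2, which is best known for binding E proteins in lymphocytes, had 7 peaks, 6.84 per 100 kb (2.75 to 14.1), 3 of them at the promoter. The tallest, in its exon at chr12:25095323-25095407, had 6.08-fold enrichment and 13 fragments (6.92 to 22.2), and the upstream peaks had 4.79 and 3.28. Id4, the member of the family best known from neural progenitors and astrocytes, had 8 peaks, 7.63 per 100 kb (3.29 to 15.0), all within 4.29 kb of its start site, 5 at the promoter and 3 in the rest of the gene. Fold enrichment at Id4 ran from 3.87 to 6.08. Id4 was the only one of the 8 genes with peaks to have none in its flanks, and its peaks from the intron on lay near the start site of an overlapping RNA gene, A330033J07Rik, so they could not be assigned to either.

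At Msc no peak lay within 102.7 kb, and the exact Poisson 95% interval of this count of 0 reached 3.59 peaks per 100 kb. The nearest summit was 267.4 kb from a start site, while chromosome 1 had 6.07 peaks per 100 kb. No peak number was absent there. At Mdfi a single peak of 3.93-fold and 8 fragments (3.45 to 15.8) lay in an intron of Foxp4, 47.1 kb from the first start site, and none lay in the gene or at its 6 start sites. Both inhibitors that do not belong to the Id family thus lacked a promoter peak at this depth.

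**Figure D2:**
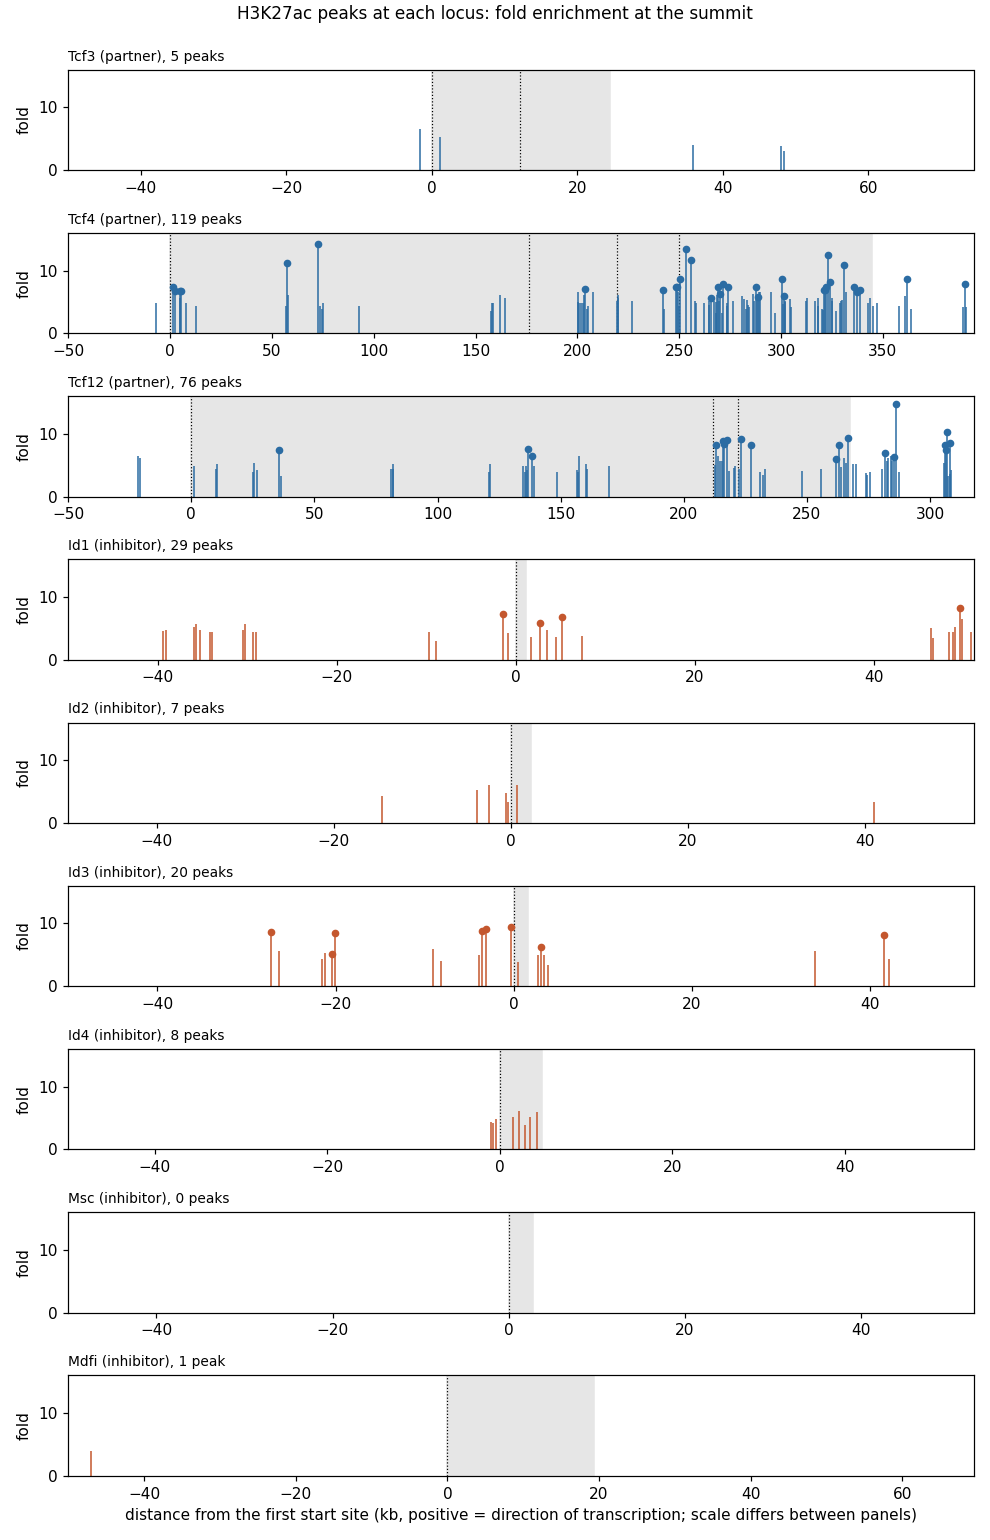
Fold enrichment at the summit (vertical axis, 0 to 16) of each peak of the 9 loci by its distance in kb from the first start site, with the gene shaded, start-site windows as dotted lines, and dots on peaks among the strongest 25% of the list. Peaks crowd toward the 3' end of Tcf4 and Tcf12, sit close to the gene at Id4, and are absent at Msc.

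Partners and inhibitors differed in peak density as groups, but their genes overlapped. Over all loci partners had 21.4 peaks per 100 kb (exact Poisson 95% interval 18.5 to 24.5) and inhibitors 10.3 (7.94 to 13.1), a ratio of 2.08. The median gene had 20.7 among partners, with a range of 4.02 to 26.8, and 7.23 among inhibitors, with a range of 0 to 28.7, so Id1 lay above each partner and Tcf3 below Id1, Id2, Id3 and Id4. In descending order of density the genes were Id1, Tcf4, Tcf12, Id3, Id4, Id2, Tcf3, Mdfi and Msc, and the intervals of neighbors in this order overlapped throughout. The intervals of Id1, Tcf4 and Tcf12 did not overlap those of Id4, Id2, Tcf3, Mdfi and Msc. The intervals cover counting error alone, and genes of one list are not replicates.

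**Figure D3:**
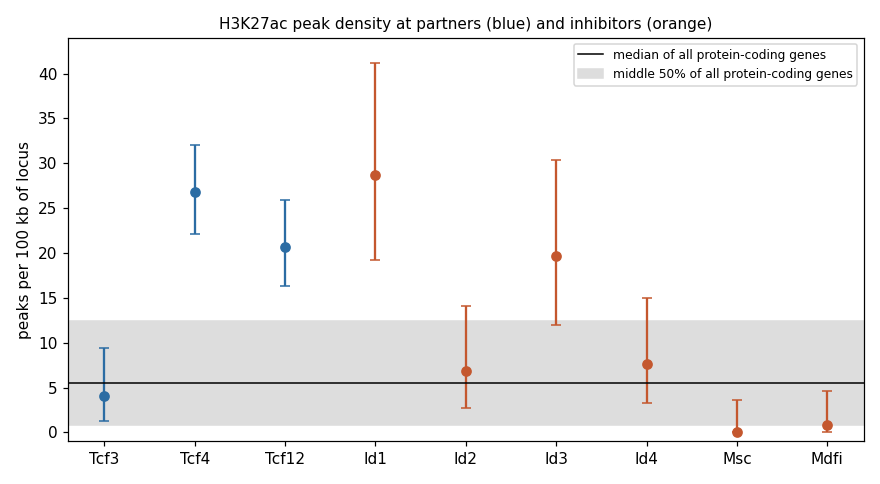
Peaks per 100 kb of locus for each gene, with exact Poisson 95% intervals as bars, partners in blue and inhibitors in orange; the line is the median of all protein-coding genes (5.49) and the band their middle 50% (0.847 to 12.4). Tcf4, Tcf12, Id1 and Id3 lie above the band and the other genes within it or below.

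The difference between the groups was smaller within the gene spans alone, with promoter sequence outside the gene left out too. There partners had 25.4 and inhibitors 21.8 peaks per 100 kb, a difference of 3.60 in place of 11.1. With whole promoter windows and gene bodies pooled, inhibitors were instead the denser group. They had 14 and 3 peaks in 28.1 and 17.2 kb, and partners 29 and 134 in 49.7 and 592.9 kb. Within promoter windows partners had 58.3 per 100 kb (39.1 to 83.8) and inhibitors 49.8 (27.2 to 83.5). These windows were not alike, since most promoter peaks of Tcf4 and Tcf12 lay at internal start sites, while each Id gene has 1 start site. In the flanks the values were 12.6 (8.86 to 17.3) and 8.18 (6.03 to 10.8). Both pairs of intervals overlapped. Of the partners' peaks 67.0% were in gene bodies, and of the inhibitors' peaks 73.8% were in flanks; outside promoters the gene bodies measured 592.9 kb in all for partners and 17.2 kb for inhibitors. Leaving out Tcf4, an alternative chosen after seeing the data, gave partners 16.5 per 100 kb and a difference of 6.18.

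Peak height differed little. The median fold was 5.22 at partners (95% interval by order statistics 5.05 to 5.57) and 4.80 at inhibitors (4.38 to 5.22), against 5.22 over all peaks. Strong peaks were 26.0% of the partners' peaks (Wilson 95% interval 20.4 to 32.5) and 18.5% of the inhibitors' (10.9 to 29.6). The direction of the height difference was not stable, since among the strongest 25% of the list the difference, partners minus inhibitors, was -0.825. Single genes of both groups lay on either side of the median of the list, as Tcf3 at 3.93 and Tcf4 at 5.35 or Id1 at 4.62 and Id3 at 5.44.

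**Figure D4:**
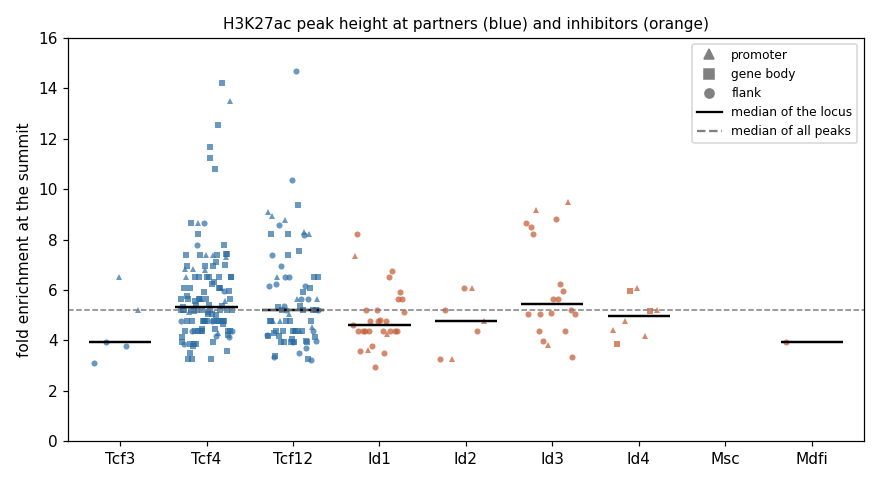
Fold enrichment at the summit of each peak by gene (triangles promoter, squares gene body, circles flank), with the median of each locus as a black bar and that of all peaks (5.22) as a dashed line. Values above 10 occur at Tcf4 and Tcf12, with 119 and 76 peaks, but at no inhibitor, where all 6 genes have 65 peaks. The larger sets reach high values more easily. The medians of Tcf4 (5.35), Tcf12 (5.22) and Id3 (5.44) lie close to that of the list.

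By nearest start site among all RefSeq models, predicted ones included, 115 peaks of the list belonged to partners and 27 to inhibitors. With curated models alone the numbers were 142 and 27. Tcf4 had 63, Tcf12 50, Id1 10, Id2 8, Id3 6, Id4 3 and Tcf3 2, and Msc and Mdfi had none. Of these, 1 peak of Tcf12 and 1 of Id2 lay outside the gene and its 50 kb flanks. The remaining peaks of the loci were nearer to a start site of another gene, which for every such peak in the body of Tcf4 was Gm31439. Joined clusters overlapped 5 of the 9 genes, Tcf4, Tcf12, Id1, Id3 and Id4, with best ranks of 39, 509, 3213, 1973 and 5873. The share of all protein-coding genes overlapped by a cluster was not counted, so 5 of 9 cannot be called many or few.

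The E-box, the sequence that MyoD and E protein dimers bind, was searched within 100 bp of each summit on both strands. CANNTG was present at 65.0% of partner peaks (Wilson 95% interval 58.2 to 71.3) and at 73.8% of inhibitor peaks (62.0 to 83.0), beside 64.9% of all peaks. The order of the groups was not stable, since among the strongest 25% of the list CANNTG was at 78.8% of partner and 58.3% of inhibitor peaks. CAGCTG and CAGGTG are forms of CANNTG and are counted within it. CAGCTG was at 5.50% and 15.4% of partner and inhibitor peaks beside 10.0% of all, and CAGGTG at 9% and 23.1% beside 12.4%. The difference in CAGGTG lay mostly at Id1, where 11 of 29 peaks had it (37.9%, 22.7 to 56.0), 5 of the 10 nearest to Id1 and 6 of the other 19. Counting only letters outside annotated repeats left 34.5% of Id1 peaks and 10.6% of all peaks. Peaks of inhibitors had a median GC content of 50.2% and those of partners 42.3%, against 45.8% for the list, and its part in the motif shares was not tested.

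The letters GGCGCC were at 4 of 65 inhibitor peaks, 3 at Id3 and 1 at Id2, and at 1 of 200 partner peaks, against 1.15% of all peaks. The Id3 matches were the promoter peak shown above and flank peaks 9.04 and 8.16 kb upstream, and the Id2 match was the weak upstream peak of 3.28-fold. A pair of homeodomain half-sites, TAAT and ATTA with any 2 bases between them, was at 0 of 265 member peaks, which allows a share of up to 1.13%, and at 0.450% of the list. These matches are descriptions of letters and not evidence of binding.

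Genes of related pathways were read the same way, by promoter peaks. Of 19 BMP and SMAD genes, which act upstream of the Id genes, 11 had a promoter peak and 9 a strong one, against 46.1% and 30.0% of all genes. The strong ones were the receptors Bmpr1a, Bmpr1b, Bmpr2, Acvr1 and Acvr2a, the signal transducers Smad1, Smad5 and Smad4, and the secreted BMP antagonist Grem1. Bmpr2 was the highest of them with 13.9-fold enrichment and 32 fragments, and Acvr2a reached 12.6-fold. Of 17 genes listed as other E-box and bHLH repressors, 10 had a promoter peak and 5 a strong one, namely Twist1 at 7.80-fold, Bhlhe40, Bhlhe41, Zeb1 and Snai2 at 8.51-fold. Not all of the 17 are known to repress myogenesis. Of 10 class II bHLH genes, which use E proteins as partners, 1 had a promoter peak, Myf6, and Myod1 itself had none.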

How the data were processed

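CUT&RUN libraries were grouped by their labels into MCP and TCP, H3K27ac and IgG, and the 1 peak list used here was tied to its library by the number that its peak names share with the description of MCP H3K27ac replicate 5, a description that calls the library MCP_H3K27ac_1. The authors mapped reads with bowtie to mm10, left out problematic regions and amplified DNA near Col19a1, and called peaks against IgG. The submitters' processing notes name BWA, SAMtools, MACS2, mm10 and dm6 instead, and which threshold the list was cut at could not be settled (largest q 0.0471). The deposited columns hold a score, a fold enrichment (a ratio over local background), a -log10 p and a -log10 q, all made by the authors' caller for each peak. Peak names were numbered up to 122959 and 584 numbers were absent.

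Peaks were placed at RefSeq genes of GRCm38.p6 by an overlap of at least 1 bp. Fragments were solved as whole numbers from fold and p (scale 0.885), and 100% of peaks solved within 0.01 in -log10 p, 96.3% with a single solution. They are inferences and not read counts, and intervals and limits cover counting error only. The same measures were taken over all 21521 protein-coding genes on chromosomes 1 to 19 and X. Clusters joined peaks up to 12.5 kb apart. Python 3.11.15, pandas 2.3.3, numpy 2.4.6, scipy 1.17.1 and matplotlib 3.10.9 were used, and steps were tested on simulated data. No p-value was computed. The genes named were the 9 members with their promoter peaks and strongest peak, genes at flank promoters or containing flank peaks, pathway genes with strong promoter peaks, and markers. Mbd3, Mex3d, Cgnl1, H13, Bcl2l1, E2f2, Foxp4, Gm42329, Gm31439 and A330033J07Rik were named after their values were seen, for their place beside a member. The members and lists were chosen with earlier results of these data known. Alternatives were the strongest 25% of peaks, a -log10 q of at least 3, summits in place of overlaps, other promoter, flank and motif windows, other gene models and a shorter joining distance.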

Additional observations from a re-analysis of the deposited data

How the results depend on the processing

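No paired analysis was possible because a single library was used and no test was run between samples. Of the values recomputed under the alternatives, 55 stayed within their 95% interval or, for counts and differences, within 1.5 times, 29 moved further and 1 reversed. Differences between the groups were scored for density and median fold only, and not for CANNTG. With the strongest 25% of the peaks, partners minus inhibitors in median fold enrichment reversed to -0.825 (medians 7.41 and 8.24), density fell to 5.55 and 1.90 peaks per 100 kb (difference 3.65), 2 partners and 2 inhibitors had a promoter peak, clusters overlapped 4 genes, 29 and 5 peaks were nearest to partners and inhibitors, and CANNTG was at 78.8% and 58.3%. With a -log10 q of at least 3, densities were 16.0 and 6.65, median folds 5.65 and 5.44 (difference 0.215), and 84 and 17 peaks were nearest to partners and inhibitors. Curated start sites gave 142 and 27, and clusters with promoter peaks kept overlapped 7 genes. The fold difference was 0.168 with a flank of 25 kb and 0 with 100 kb, where the density difference was 6.67 and 4 inhibitors had a strong peak. Within the gene spans alone, with upstream promoter sequence left out too, densities were 25.4 and 21.8 (difference 3.60). CANNTG within 50 bp of the summit was at 41.0% and 38.5%, and within 250 bp at 94.5% and 93.8%. Without Tcf4, chosen after seeing the data, partners had 16.5 per 100 kb (difference 6.18). GENCODE start sites, also chosen after seeing the data, gave promoter peaks at 3 partners and 4 inhibitors, the counts with RefSeq. A summit of 13 fragments limits what height can show, and absence of a peak is absence at this depth in 1 library.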
